A study of Mus musculus with 1073 samples.

Results

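*Csf1r* encodes the receptor for the growth factors CSF1 and IL-34, on which the survival and differentiation of macrophages depend. In the yolk sac, macrophages are the earliest leukocytes, and they arise beside haematopoietic progenitor cells (HPCs) that still carry the receptor tyrosine kinase KIT and the transcription factors MYB and GATA2. Detection of *Csf1r* transcripts in a sorted progenitor is therefore of interest as a mark of the monocyte and macrophage programme in a cell whose surface phenotype is that of a progenitor. The 87 E10.5 HPCs of this series were divided by *Csf1r* (Ensembl gene ENSMUSG00000024621): 60 cells held 1 count or more and 27 held none, out of 926 cells in the series. The classes were thus chosen by the *Csf1r* counts themselves, so the *Csf1r* level of a class describes the choice and is not a result, and *Csf1r* was left out of every comparison below.

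The E10.5 HPCs are C57BL/6 mouse yolk sac cells, labelled erythro-myeloid progenitors (EMP), sorted as TER119- CDH5- CD41low CD45+ and captured singly on the Fluidigm C1 system. The E9.5 HPCs set beside them are C57BL/6 cells of the same label, and no cell of either stage was treated. The other sorted populations used as references at E10.5 were macrophages (Mac, TER119- CD45+ CD41-), megakaryocytes (Mk, TER119- CDH5- CD41+ CD45-), endothelium (Endo, TER119- CD45- CD41- CDH5+) and primitive erythroid cells (EryP, TER119+, 3 cells). All 87 HPCs carry a single capture label and a single lane number, and the labels tie no cell to an embryo or pool. They are 1 sample, so cells are not replicates, no test was made and no p-value is given. Differences between the classes are described by their means, their ranges over cells and the chance that a random cell with *Csf1r* exceeded a random cell without it, called here the chance of superiority (0.5 when the classes do not differ). Each share of cells is given with its 95% interval (exact, after Clopper and Pearson), in which only the counting error enters.

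*Csf1r* was found in 69.0% of the E10.5 HPCs (60 of 87, 95% interval 58.1 to 78.5). The counts did not fall into a single range. Of the 60 cells, 24 held 1 to 9 counts, and 11 of these held exactly 1, whereas 36 held 10 or more, with a median of 218.5 and a highest value of 4275. Just inside the rule stood the 11 cells with 1 count and just outside it the 27 cells with 0, and only 3 cells held exactly 10 counts, the next cell holding 23. Raised to 10 counts, the share was 41.4% (36 of 87, 30.9 to 52.4).

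Total counts per cell ran from 483830 to 4339557. The median total was about 1436630 in cells without *Csf1r*, 1607130 in cells with 1 to 9 counts and 1709650 in cells with 10 or more, and the median number of genes found was 9195, 8917.5 and 9376.5. Of the 44 cells at or below the median total, 65.9% held *Csf1r* (50.1 to 79.5), and of the 43 cells above it 72.1% (56.3 to 84.7). These intervals overlap, and they hold counting error only. When cells were thinned at random to 840000 counts, 43 of the 71 cells that were deep enough still held a count (60.6%). The reads of cells in a lane are told apart by a pair of index sequences, and cells with 1 to 9 counts shared an index with cells that together held a median of 4321 *Csf1r* counts, compared with 2558 for cells with 0 and 2633 for cells with 10 or more. The part of shared indices in the low counts was not tested, and values are given below for the low-count cells on their own wherever they differ from the rest.

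In the other populations *Csf1r* was found in 25 of 25 macrophages (23 to 9661 counts, mean 763 CPM), 2 of 73 megakaryocytes (2.74%, 0.334 to 9.55) and 0 of 61 endothelial cells (a count of 0 allows at most 4.92%). A single count was present in 2 of the 3 E10.5 primitive erythroid cells, which carry the same lane number as the macrophages. Among HPCs the share was 15.1% at E8.25 (11 of 73), 39.3% at E8.5 (35 of 89, 29.1 to 50.3), 84.8% at E9.5 (39 of 46, 71.1 to 93.7) and 69.0% at E10.5. At 10 counts or more it was 2.74%, 25.8%, 60.9% and 41.4%. The intervals at E9.5 and E10.5 overlap under both limits, and those at E8.25 and E8.5 do not. They hold counting error only and are no test between stages. The paper identifies lineages at E8.5 by TER119, CDH5 and CD41, whereas the E10.5 HPC gate also uses CD45. Stage cannot be told apart from capture and lane or, between the earlier and later HPCs, from the sort gate.

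**Figure D1:**
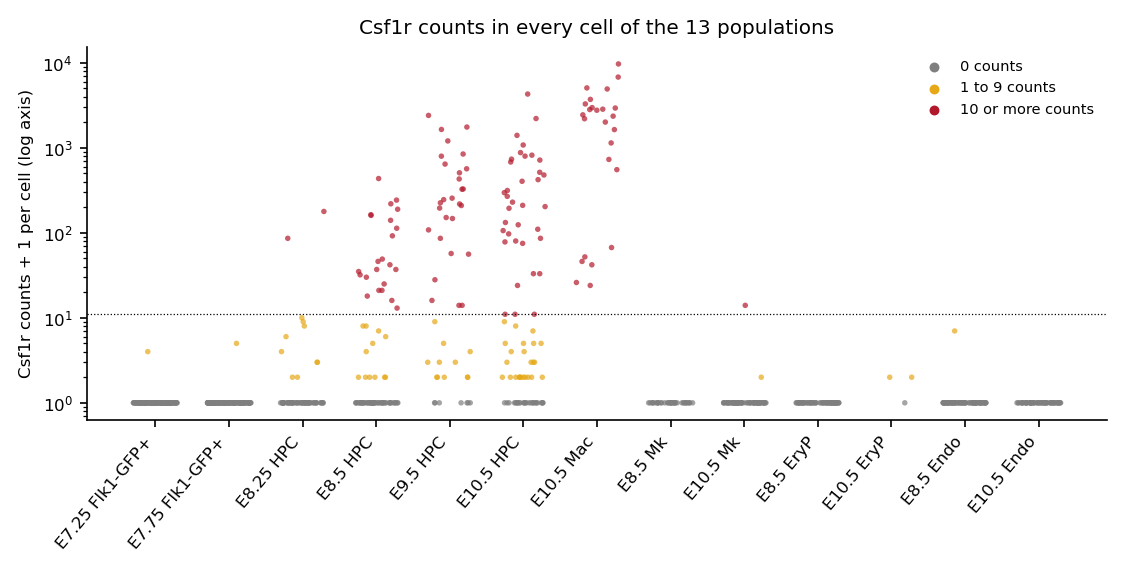
Counts of Csf1r + 1 in every cell (log axis) of the 13 sorted populations, each point 1 cell, grey for 0 counts, yellow for 1 to 9 and red for 10 or more; the dotted line marks 10 counts. In E10.5 HPCs 27 cells sit at 0, 24 below the line and 36 on or above it, whereas all 25 macrophages lie above it and the 61 endothelial cells all lie at 0.

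Before the comparison, the label of the cells was checked against markers. Progenitor genes were present in all classes: *Runx1*, a transcription factor required for definitive haematopoiesis, was found in 27 of 27 cells without *Csf1r* and in 60 of 60 with it. *Kit* was found in 26 of 27 and in 54 of 60 cells, *Myb* in 27 of 27 and 55 of 60, and *Gata2* in 27 of 27 and 51 of 60. The pan-leukocyte gene *Ptprc* (CD45) was found in 25 of 27 and in 58 of 60 cells. Itga2b (CD41) was found in 23 of 27 and in 41 of 60. The summed level of 6 erythroid markers did not exceed 145.01 CPM in any HPC (median in sorted primitive erythroid cells 24503 CPM) and *Slc4a1* was at 0 throughout. The summed level of 6 megakaryocyte markers reached at most 462 CPM, beside a median of 5800 in sorted megakaryocytes. The 3 visceral endoderm markers in the table summed to at most 10.3 CPM, with *Ttr* at 0. Macrophage and endothelial markers were high in some cells. The summed level of 8 macrophage markers reached 160 CPM with 0 counts of *Csf1r*, 1802 CPM with 1 to 9 and 9863 CPM with 10 or more (median in sorted macrophages 5889 CPM). That of 6 endothelial markers reached 536, 2293 and 521 CPM in the same classes (median in sorted endothelium 4423 CPM).

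Several cells stood apart. When each cell was matched by rank correlation to the mean profiles of the E10.5 populations, all 27 cells without *Csf1r* were closest to the other HPCs, as were 23 of 24 with 1 to 9 counts and 30 of 36 with 10 or more. The remaining 6 cells of the last class were closest to macrophages. The remaining low-count cell, cell 71, was closest to endothelium: it held 4 counts of *Csf1r*, 662 CPM of *Cdh5* (VE-cadherin, which the gate was set to leave out), 3315 CPM of *Lyve1* and 2381 CPM of *Stab2*, and no *Kit*, *Myb* or *Gata1*. Cell 1, with 714 counts of *Csf1r*, was among the 6 closest to macrophages and held the highest *Ptprc* level, 2795 CPM. Cell 86, with 74 counts of *Csf1r*, was also among those 6. The scaled values of cell 86 summed to about 1684860 where the median cell reached 901316. Among cells with 10 or more counts the mitochondrial share reached 49.9%. Counts given below without cells 1 and 71 still include cell 86. Transcripts of both sexes (*Xist* with Y-linked genes), as a site holding more than 1 cell would give, occurred in 6 of 27, 5 of 24 and 8 of 36 cells, thus in similar shares of each class (22.2%, 20.8% and 22.2%). For several lists, counts are given below also without the 7 cells closest to another population. Single genes are given without cell 71 where it held the highest value, except *Pcdh7*, a lower gene.

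Of 15967 genes in the filtered table, 6989 reached a mean of 20 CPM and detection in 25% of cells in at least 1 of the classes and were compared. In cells with *Csf1r* the mean level of 417 genes (5.97% of those compared) was at least 2-fold higher and that of 1.46% at least 2-fold lower, on the scale of log2 of mean CPM + 1. These percentages are the background for the gene lists below. The higher genes were uneven among cells: for 77 of the 417 the median cell with *Csf1r* held none, and only 86 had a chance of superiority of 0.7 or more. With the highest cell of each gene removed, 285 of the 417 higher genes and 36 of the lower genes remained past 2-fold. Without cells 1 and 71 the counts were 370 higher and 100 lower. Without the 7 cells closest to macrophages or endothelium, 259 genes (3.76%) were higher and 81 (1.18%) lower. A gene that was scarce in one class passed the limits only through the other, where it had to be higher, so the list counts over compared genes describe those genes and not whole lists. With no such limits, 1612 of 15382 genes (10.48%) were 2-fold higher and 4.45% lower.

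Among the 417 higher genes, those with the highest chance of superiority included genes found in every cell. *Tmsb4x*, which encodes the actin-sequestering peptide thymosin β4, came first (0.831). Its level was 188 to 1589 CPM (median 823) in cells without *Csf1r* and 495 to 8467 CPM (median 1675) in cells with it, and the log2 ratio of the means was 1.45. *B2m*, the light chain of MHC class I, had medians of 190 and 305 CPM (ranges 116.4 to 365 and 110 to 1740, log2 ratio 1.13). *Cst3*, the cysteine protease inhibitor cystatin C, had medians of 119.2 and 215 CPM (ranges 43.2 to 306 and 52.1 to 1782, log2 ratio 1.29). All 3 genes were found in every cell of both classes, and their ranges overlapped.

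*Tyrobp*, the adaptor through which many myeloid receptors signal, ranged from 4.53 to 209 CPM (median 55.2) without *Csf1r* and from 0.268 to 1575 CPM (median 138.3) with it, a log2 ratio of 2.18. *Lsp1*, a leukocyte actin-binding protein, had medians of 1.61 and 63.5 CPM and reached 235 and 3406 CPM (log2 ratio 4.00). *Igsf6*, an immunoglobulin-type receptor of myeloid cells, was at 10 counts or more in 8 of 27 cells without *Csf1r*, 6 of 24 with 1 to 9 counts and 33 of 36 with 10 or more. The median of *Igsf6* was 0 CPM without and 97.6 CPM with *Csf1r*, and its log2 ratio was 3.54. The low-count cells thus lay with the cells without *Csf1r* for this gene.

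The remaining genes of the 14 with the highest chance of superiority were *Mtus1*, *Psmb8*, *Gas7*, *Maf*, *Irf5*, *Anxa3*, *Ctsz* and *Hcls1*. Their log2 ratios lay between 2.00 (*Hcls1*) and 6.97 (*Maf*) and their chances of superiority between 0.770 and 0.787. *Psmb8*, an immunoproteasome subunit, was at 10 counts or more in 8 of 27, 17 of 24 and 28 of 36 cells, and *Hcls1*, a haematopoietic substrate of tyrosine kinases, in 9 of 27, 18 of 24 and 29 of 36. By this share, the low-count cells lay nearer to the cells with 10 or more counts for *Psmb8* and *Hcls1*. By mean level this held for *Hcls1* (8.53, 28.5 and 42.9 CPM). The means of *Psmb8* were 6.64, 20.3 and 45.9 CPM, so its low-count mean lay nearer to that of cells without *Csf1r*. *Gas7* was nearly absent without *Csf1r* (at most 2.74 CPM) and reached 1050 CPM with it. *Cd53* and *Lcp1*, other leukocyte genes of the fixed lists, had log2 ratios of 1.80 and 1.08.

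**Figure D2:**
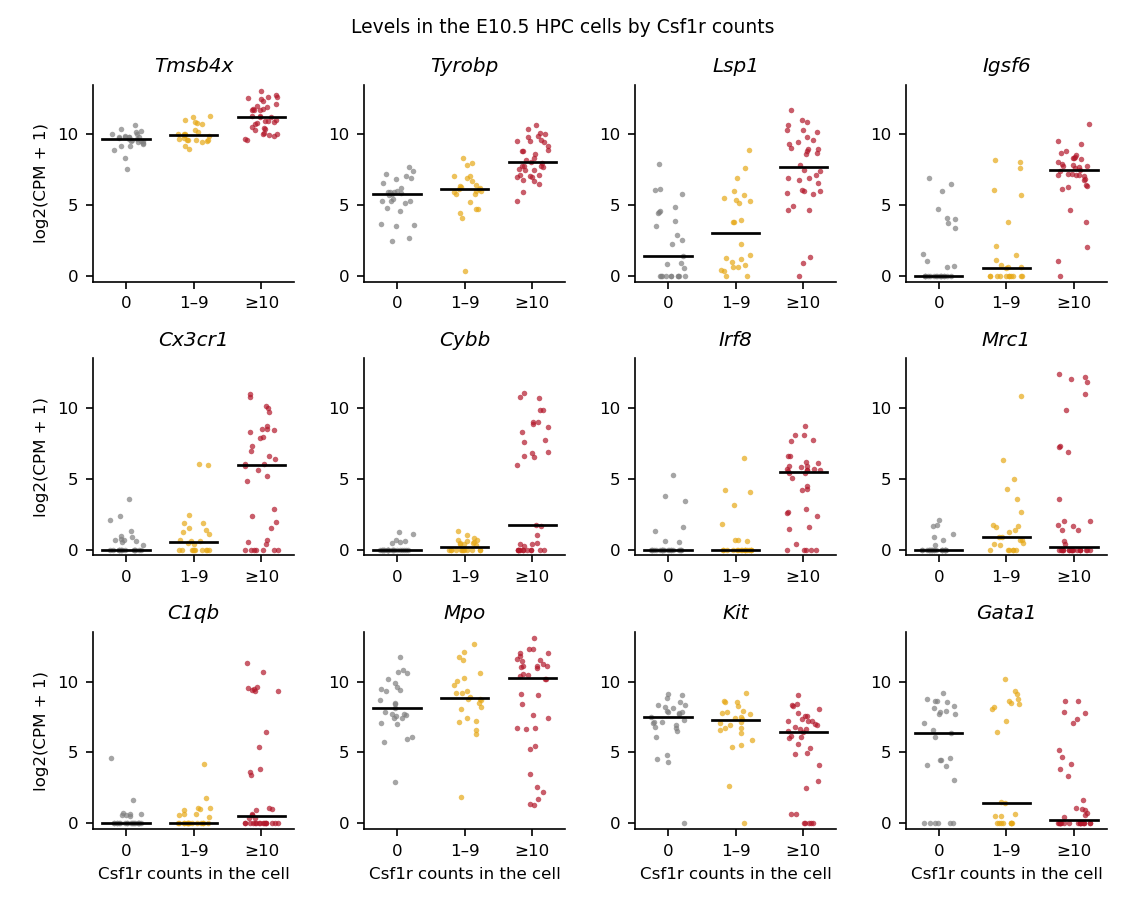
Level of 12 genes, as log2(CPM + 1), in the 27 cells with 0, the 24 with 1 to 9 and the 36 with 10 or more counts of Csf1r; each point is 1 cell and each bar the median. Tmsb4x and Tyrobp are found in every cell, with overlapping ranges and their highest medians at 10 counts or more. Igsf6, Cx3cr1 and Irf8 have high medians only at 10 counts or more, and Cybb, Mrc1 and C1qb are high in a subset of those cells.

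Macrophage and monocyte surface genes formed the list with the most members past 2-fold. Of 30 genes listed, 27 are in the table and 16 were compared: 13 were higher, none was lower, and the median log2 ratio was 2.99, where 5.97% of all genes were higher and the median of all was near 0. The other 11 members in the table, among them *C1qa* and *C1qc*, were below the limits of level or detection. The count was 13 of 16 also without cells 1 and 71, and 11 of 14 without the 7 cells closest to another population, where the median was 2.11. With no limits on level it was 23 of 27. In low-count cells against cells with 0, 2 of 6 compared members were 2-fold higher, beside 3.82% of all genes, and the median was 0.41. The summed level per cell was 51.7 to 1123 CPM (median 587) with 0 counts, 101.5 to 6171 CPM (median 713) with 1 to 9 counts, and 498 to 15952 CPM (median 1642) with 10 or more. Without cell 71 the highest low-count cell reached 1195 CPM.

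Single genes of this list showed that the difference lay in some of the cells. *Cx3cr1*, the fractalkine receptor of macrophages and their precursors, reached at most 11.1 CPM in cells without *Csf1r* (mean 0.922) and 2003 CPM with it (mean 165, median 2.30). It was at 10 counts or more in 1 of 27, 3 of 24 and 22 of 36 cells. *Adgre1*, which encodes the macrophage antigen F4/80, was at 10 counts or more in 0 of 27 cells without *Csf1r*, 1 of 24 low-count cells and 17 of 36 cells with 10 or more.

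*C1qb*, a chain of the complement component C1q that tissue macrophages secrete, was at 10 counts or more in 1, 1 and 13 cells of the 3 classes. *C1qb* reached 23.6 CPM without and 2568 CPM with *Csf1r*, and the mean in macrophages was 1124 CPM. *C1qc*, another chain, had means of 0.151 and 13.9 CPM, and *C1qa* was at 0 in all 27 cells without *Csf1r* and found in 11 of 60 with it. *Ly86*, which encodes the protein MD-1, had 3 counts in all cells without *Csf1r* together and 16228 in those with it. The ratio per total count was 2135 (95% counting interval 731 to 10356). This interval treats each count as independent, and the spread over cells does not enter it. Cell 84, among the 6 closest to macrophages, held 7690 of the 16228 counts, and without that cell the ratio was 1165 and the log2 ratio fell from 6.67 to 6.11. *Mrc1*, the mannose receptor, reached at most 3.28 CPM without *Csf1r* and 5299 CPM with it, in cell 28, which is among the 6 closest to macrophages, but its median in cells with *Csf1r* was 0.614 CPM. Cell 71 alone held 1800 CPM of *Mrc1*, and the mean of the other low-count cells was 6.88 CPM.

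Genes of the phagocyte machinery were higher as well. Of 19 compared genes for lysosomal enzymes and the oxidase complex, 12 were higher and none lower (median log2 ratio 1.65). The count was 10 of 18 without the 7 cells closest to another population (median 1.27), and 14 of 21 with no limits on level. *Cybb*, the catalytic subunit of the phagocyte NADPH oxidase, reached at most 1.39 CPM in cells without *Csf1r* and 2114 CPM with it. It was at 10 counts or more in 0 of 27, 0 of 24 and 17 of 36 cells. *Ctss* (cathepsin S) likewise was at that level in 0, 0 and 14 cells, and *Lgmn* (legumain) in 2, 1 and 14. *Ctsb* (cathepsin B), found more widely, had means of 124.8 CPM with 0 counts, 130.1 CPM with 1 to 9 and 1704 CPM with 10 or more. In low-count cells 1 of 14 compared members was past 2-fold.

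Of 18 tabulated myeloid transcription factors, 11 were below the limits and 5 of the 7 compared were higher (median log2 ratio 3.66). With no limits on level 9 of 18 were higher and 1 lower, with a median of 0.99. The count was 5 of 7 also without the 7 cells closest to another population. *Irf8*, a factor of the monocyte and macrophage lineage, reached 37.1 CPM without *Csf1r* and 417 CPM with it, was at 10 counts or more in 2 of 27, 4 of 24 and 26 of 36 cells, and had a log2 ratio of 3.66. *Irf5* and *Id2* had log2 ratios of 3.72 and 4.45. *Maf*, a factor of resident macrophages, had a mean of 1.17 CPM without and 271 CPM with *Csf1r* (log2 ratio 6.97), and was at 10 counts or more in 1, 5 and 19 cells. *Maf* is abundant in endothelium too (mean 2482 CPM, macrophages 1832 CPM), and cell 71 held its highest value, 4071 CPM. Without cell 71 the log2 ratio of *Maf* was 6.58, and the mean of the other low-count cells was 5.77 CPM.

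*Spi1*, which encodes the lineage factor PU.1, differed less. Its level was too low for comparison by the limits used: 0 to 48.4 CPM (median 3.91) without *Csf1r* and 0 to 58.3 CPM (median 7.78) with it. *Spi1* was at 10 counts or more in 11 of 27, 7 of 24 and 28 of 36 cells. *Cebpa*, a factor of granulocyte and monocyte commitment, was scarce in both classes (means 2.21 and 4.57 CPM, in macrophages 60.6 CPM). *Runx1* had medians of 195 and 195 CPM and a log2 ratio of 0.23.

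PU.1 binds purine-rich sites, of which GAGGAAGT is a common form. The promoter windows of 27025 genes (250 bases before to 50 after the start, RefSeq, GRCm38.p6) were searched for GAGGAAGT on both strands, which held it in 3.28% of cases. Of the 5084 compared genes with a window, 3.25% held it, of the 307 higher genes 5.21% (16 windows), and of the 77 lower genes 1.299% (1 window). None of the 8 windows found for the 14 first-named higher genes held it. The windows of *Ctss* (chr3:95526536-95526835, plus strand) and *Mpo* (chr11:87793534-87793833, plus strand), both named genes that were higher with *Csf1r*, are shown to place the match, in capitals; in *Ctss* it is the reverse complement.
Ctss: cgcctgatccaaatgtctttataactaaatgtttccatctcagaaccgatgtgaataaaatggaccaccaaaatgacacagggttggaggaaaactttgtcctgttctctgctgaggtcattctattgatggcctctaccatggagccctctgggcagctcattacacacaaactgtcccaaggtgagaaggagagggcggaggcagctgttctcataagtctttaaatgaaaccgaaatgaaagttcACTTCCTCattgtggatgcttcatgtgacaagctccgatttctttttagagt
Mpo: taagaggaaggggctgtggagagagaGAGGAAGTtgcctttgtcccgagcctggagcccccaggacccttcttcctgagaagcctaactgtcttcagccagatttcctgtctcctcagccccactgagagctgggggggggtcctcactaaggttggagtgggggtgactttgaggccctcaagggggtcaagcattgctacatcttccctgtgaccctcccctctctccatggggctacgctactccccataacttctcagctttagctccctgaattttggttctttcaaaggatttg
The match begins 2 bases before the start of *Ctss* and 224 bases before that of *Mpo*. It is a match of letters, and no binding was measured.

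Genes for adhesion, motility and chemokines were higher in 10 of 20 compared members and lower in none (median log2 ratio 0.86), and in 7 of 19 without the 7 cells closest to another population (median 0.57). *Ccl3*, a macrophage chemokine, was at 10 counts or more in 1 of 27, 2 of 24 and 27 of 36 cells, and reached 32.8 CPM without and 1012 CPM with *Csf1r*. Its receptor *Ccr1* was at that level in 1, 1 and 13 cells. *Ccl4* had a log2 ratio of 4.92, which fell to 3.51 without its highest cell, cell 77 (3259 CPM). Antigen presentation genes were represented by 4 compared members, of which *Psmb8* and *B2m* were past 2-fold, whereas *H2-D1* and *H2-K1* had log2 ratios of 0.25 and 0.15. Without those 7 cells 1 of the 4 was past 2-fold.

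Genes of the signalling chain downstream of the receptor mostly lay within 2-fold. Of 16 compared genes that encode CSF1 receptor adaptors, kinases and phosphatases, 1 was past 2-fold and the median log2 ratio was 0.07. The exception was *Pik3ap1*, an adaptor of PI3-kinase, with medians of 0 and 7.44 CPM, a highest value of 64.0 and 463 CPM, and a log2 ratio of 2.30. *Inpp5d* and *Cbl*, negative regulators of receptor signalling, had log2 ratios of 0.06 and 0.01, and *Grb2*, the general adaptor, -0.46. Of 8 compared haematopoietic cytokine receptors, *Il10ra* was higher (log2 ratio 1.87) and *Flt3* lower (-1.49). Without the 7 cells closest to another population, none of 7 was higher and 1 was lower. *Il10ra* had a median of 0.134 CPM with *Csf1r* and its highest value in cell 34, among the cells closest to macrophages. Without cell 34 its log2 ratio was 1.55. The value of *Flt3*, the FLT3 ligand receptor, rested on few cells: it was at 10 counts or more in 5, 4 and 8 cells, and without its highest cell the log2 ratio was -0.70. *Csf3r* and *Csf2rb*, receptors for granulocyte and granulocyte-macrophage growth factors, had log2 ratios of 0.19 and 0.16.

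Granule genes of granulocyte and monocyte precursors were higher in 4 of 7 compared members and lower in 1, *Nkg7* (log2 ratio -1.10). Without the 7 cells closest to another population, 4 of 7 were higher and none lower. *Mpo*, which encodes myeloperoxidase, was found in every cell. Its level was 6.68 to 3338 CPM (median 275) without *Csf1r* and 1.44 to 8420 CPM (median 590) with it, a log2 ratio of 1.25 with a chance of superiority of only 0.601. *Prtn3* (proteinase 3) had a log2 ratio of 1.01. *Hp* (haptoglobin) was at 10 counts or more in 3, 8 and 26 cells and *Clec12a*, an inhibitory lectin of myeloid cells, in 3, 3 and 22. *Mpo* was almost absent from sorted macrophages (mean 11.1 CPM).

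To see whether levels followed the amount of *Csf1r*, the 60 positive cells were split into 3 equal sets of 20 by *Csf1r* CPM, the lowest below 3.16 CPM, the middle from 3.32 to 112.8 CPM and the highest from 117.8 to 1953 CPM. The mean of *Mpo* was 1095, 2208 and 1096 CPM in these sets, thus highest in the middle set. *C1qb* was at 0.413, 1.55 and 431 CPM, *Cybb* at 0.361, 45.9 and 472 CPM, *Cx3cr1* at 3.89, 27.3 and 465 CPM, and *Irf8* at 5.85, 17.2 and 101.6 CPM. The median summed level of the granule list was 885 CPM without *Csf1r* and 1196, 3022 and 1347 CPM in the 3 sets, whereas that of the macrophage list was 587 CPM and then 713, 895 and 4233 CPM. The granule genes differed among themselves. *Prtn3*, like *Mpo*, had its highest mean in the middle set (132.1, 277 and 178 CPM), whereas *Hp* (30.2, 121.8 and 202 CPM) and *Clec12a* (3.96, 28.1 and 94.5 CPM) had it in the highest set. The 4 macrophage-lineage genes named here had their highest means in the highest set. All 6 cells closest to macrophages lay in that set (160 to 1953 CPM of *Csf1r*). They held 0 to 2568 CPM of *C1qb* and 125.6 to 2003 CPM of *Cx3cr1*. Cells of the set that were closest to HPCs reached 772 CPM of *C1qb* (cell 30) and 1127 CPM of *Cx3cr1* (cell 64). Means of the set without those 6 cells were not taken.

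**Figure D3:**
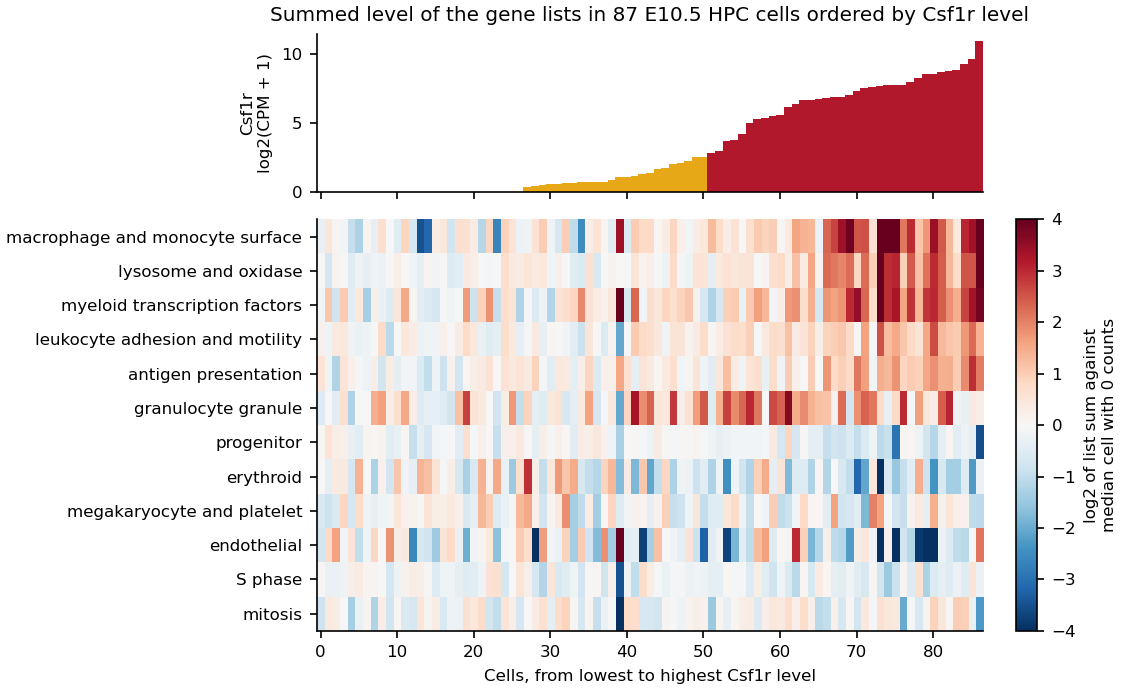
The 87 E10.5 HPC cells ordered from left to right by Csf1r level (upper panel, log2(CPM + 1); grey 0, yellow 1 to 9 and red 10 or more counts), with the summed level of 12 gene lists in each cell below, as log2 against the median of the cells with 0 counts. Macrophage, lysosome and myeloid factor lists are raised among the cells at the right end, the granule list in the middle, and the single dark column among the yellow cells is cell 71.

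The 36 cells with 10 or more counts of *Csf1r* were not alike. Of these, 19 held *Kit* but not *C1qb* at 10 counts or more. In those 19 cells the median level was 2150 CPM of *Mpo*, 0 CPM of *C1qb* and 120.95 CPM of *Kit*. A further 8 cells held both *Kit* and *C1qb*, with medians of 186 CPM of *Mpo*, 344 CPM of *C1qb* and 458 CPM of *Mrc1*. *C1qb* without *Kit* was found in 5 cells, whose median of *Mpo* was 3.58 CPM and of *Cx3cr1* 838 CPM, and neither gene in the remaining 4. *Csf1r* had medians of 70.2, 173, 385 and 346 CPM in these 4 combinations. At 10 counts or more, 27 of the 36 cells held *Kit*, 33 *Mpo* and 11 *Gata1*, and all 11 with *Gata1* also held *Mpo*. These groupings were made after the values were seen and are a description of single cells.

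**Figure D4:**
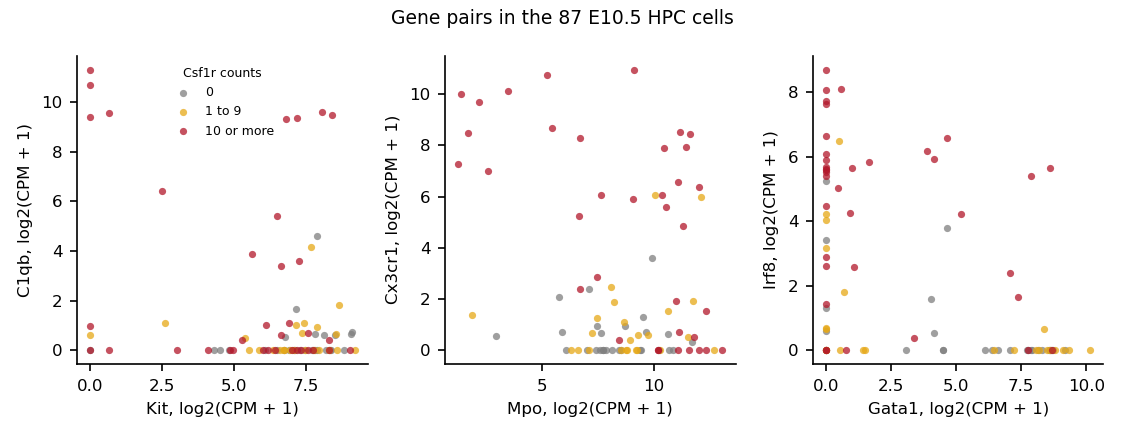
Levels of 3 pairs of genes as log2(CPM + 1) in the 87 E10.5 HPC cells, each point 1 cell, coloured by its Csf1r counts (grey 0, yellow 1 to 9, red 10 or more). C1qb is high in red cells with and without Kit, Cx3cr1 is high across the range of Mpo, and most cells with Irf8 hold little Gata1.

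By the ratio of means, progenitor genes lay close to the level of cells without *Csf1r*. The median log2 ratio was -0.21 over 18 compared members, none of them 2-fold higher. From mean log2 values the median was -0.65, and 3 of 18 members were lower and none higher (4.24% of all genes lower). *Kit* had medians of 176 CPM (0 to 553) without *Csf1r* and 110 CPM (0 to 588) with it, and a log2 ratio of -0.54. *Myb* had medians of 116.04 and 98.4 CPM (log2 ratio -0.50) and *Gata2* 142.8 and 50.6 CPM (-0.66). All 3 were still at 10 counts or more in most cells with 10 or more counts of *Csf1r*: 27 of 36 for *Kit* (75.0%, 57.8 to 87.9), 27 for *Myb* and 25 for *Gata2*. Among cells without *Csf1r* the counts were 26, 27 and 25 of 27. With 10 or more counts of *Csf1r* set against fewer, 4 of 19 members were past 2-fold lower (2.72% of all genes), among them *Myb* (log2 ratio -1.11) and *Gata2* (-1.31).

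*Gata1*, the factor of the erythroid, megakaryocyte and mast cell lineages, fell into on and off cells. It was at 10 counts or more in 21 of 27 cells without *Csf1r* (77.8%, 57.7 to 91.4), 11 of 24 low-count cells (45.8%, 25.6 to 67.2) and 11 of 36 cells with 10 or more (30.6%, 16.3 to 48.1). The intervals of the first and last shares do not overlap, but they hold the counting error within 1 sample only and are no test. The mean of *Gata1* was 154.01 CPM, 194 CPM and 45.8 CPM in the 3 classes, so the low-count cells had fewer positive cells but the highest mean. The log2 ratio of *Gata1* was -0.55 in the main division, -1.89 with 10 or more counts against fewer, -1.73 with 10 or more against 0, -1.98 after thinning to 1 depth and -2.40 as a difference of mean log2 values, and 0.33 in low-count cells against 0. Of 11 compared erythroid genes none was past 2-fold in the main division (median -0.28). Of these 11, 3 were lower with 10 or more counts against fewer and 3 from mean log2 values (4.24% of all genes lower), and after thinning 4 of 12 were lower (2.59% of all genes). Of 9 megakaryocyte and platelet genes *F2rl2* was lower (-1.31) and *Clec1b* higher (1.34). After thinning, 5 of 12 genes of this list were lower and 1 higher, and from mean log2 values 4 of 9 were lower and none higher. *Clec1b*, the podoplanin receptor of platelets, had its highest value in cell 71 and a log2 ratio of 0.94 without that cell. *Itga2b* and *Pf4* had log2 ratios of -0.55 and 1.56, the latter from means of 4.38 and 14.8 CPM, beside 4902 CPM in megakaryocytes.

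*Cpa3*, the mast cell carboxypeptidase, was at 10 counts or more in 16 of 27, 14 of 24 and 10 of 36 cells. None of 3 compared mast cell genes was past 2-fold. Nor was any of 16 S phase genes (median -0.17), or 18 mitosis genes (median 0.21). Of 15 endothelial genes 4 were compared, none past 2-fold (median -0.35), and the sign turned with the choice of genes and cells. With no limits on level 6 of 15 were higher and none lower (median 0.57). In low-count cells against 0 the count was 4 of 8 higher. Among the low-count cells, cell 71 held a summed endothelial level of 8919 CPM, and the highest of the others was 656 CPM. The part of cell 71 in these higher counts was not tested. Without cells 1 and 71, 2 of 4 were lower. Without the cells closest to another population, none of 4 was past 2-fold (median -0.51). *Mki67*, the proliferation antigen, was at 10 counts or more in 26 of 27, 23 of 24 and 36 of 36 cells. *Cdh5*, the gene of the endothelial antigen excluded by the gate, was below the limits for comparison, with means of 2.09 CPM without *Csf1r* and 17.9 CPM with it, and the mean of the 24 low-count cells fell from 35.8 to 8.57 CPM when cell 71 was removed. *Btg2*, an early response gene, had a log2 ratio of 1.38 and its highest value in cell 71 as well, without which the log2 ratio was 0.98.

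The genes lower with *Csf1r* came from no single fixed list. Of these, the 14 with the lowest chance of superiority (0.254 to 0.302) were *Dbr1*, *Cd274*, *Dtwd1*, *Lins1*, *Emsy*, *Rcl1*, *Hic2*, *Mob1b*, *Pcdh7*, *Nhej1*, *Ctla2a*, *Ube2g2*, *Slc6a13* and *Armcx2*. At E9.5, *Pcdh7* and *Mob1b* were 2-fold lower as well. The highest *Pcdh7* value among E10.5 cells with *Csf1r*, 446 CPM, was that of cell 71. *Dbr1*, the enzyme that opens intron lariats, had a median of 12.2 CPM (0 to 72.2) without *Csf1r* and 1.06 CPM (0 to 52.6) with it, and a log2 ratio of -1.78. *Cd274*, which encodes the checkpoint ligand PD-L1, was found in 21 of 27 cells without *Csf1r* and 21 of 60 with it, with a log2 ratio of -1.82. *Ctla2a*, a cysteine protease inhibitor, had medians of 53.8 and 24.4 CPM and a log2 ratio of -1.32. *Lins1* had the largest difference of the 14 (log2 ratio -2.04, means 33.1 and 7.28 CPM). In all 14 genes the ranges of the classes overlapped.

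The set of lower genes depended on where the line was drawn. Of the genes lower in the main division, 30 (29.4%) were also 2-fold lower with 10 or more counts of *Csf1r* set against fewer, where 192 genes were lower, and 65 (63.7%) were 2-fold lower in low-count cells against cells with 0, where 2.42% of all genes were. Of the 417 higher genes, 309 (74.1%) were also higher with 10 or more counts, where 516 genes (7.31%) were, and 28.5% in low-count cells. In *Dbr1* the means were 22.9 CPM with 0 counts, 4.605 CPM with 1 to 9 and 6.84 CPM with 10 or more. *Cybb*, by contrast, had means of 0.165, 0.301 and 288 CPM.

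The same division was made at E9.5, where 39 of 46 HPCs held *Csf1r* and 7 did not. The values rest on few cells without *Csf1r*, and the background shares were large: of 7400 genes compared, 1386 (18.7%) were 2-fold higher and 1190 (16.1%) lower. Median totals were about 3258220 counts with and 2497420 counts without *Csf1r*. All 14 named higher genes of E10.5 were higher at E9.5 (median log2 ratio 1.94), whereas 6 of the 14 named lower genes were higher and 8 lower (median -0.13). With 10 or more counts against fewer at E9.5 (28 and 18 cells), 11 of the 14 named higher genes were higher (median 0.72). *Maf* (-3.07), *Cst3* (-1.32) and *Psmb8* (-0.26) were then lower, *Tmsb4x* and *Hcls1* were near 0 (0.07 and 0.08), and 9 of the 14 named lower genes were higher. Of the 275 genes that were 2-fold higher at E10.5 and compared at both stages, 78.2% were higher at E9.5 with a median log2 ratio of 1.14, beside 59.6% of all 6410 genes compared at both, with a median of 0.19. Of the 65 such lower genes, 49.2% were higher and the median was -0.08. The difference between the stages was not tested.

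Named genes at E9.5 with the same direction included *Gas7* (log2 ratio 5.84), *Igsf6* (4.68), *Irf8* (5.44), *Cybb* (5.97) and *Ccl3* (6.51). Of 7 macrophage genes compared at E9.5, 5 were higher (median 1.41), and of 16 lysosome and oxidase genes 10 (median 1.19). Erythroid genes were lower in 9 of 13 (median -1.56) and progenitor genes in 7 of 17 (median -0.50), and at E10.5 the erythroid count was 0 of 11 in the main division. Among all genes compared the lower share was 16.1% at the earlier stage and 1.46% at the later. *Kit* had means of 661 CPM in the 7 cells without *Csf1r* and 121.6 CPM in the 39 with it (log2 ratio -2.43), and *Gata1* 167 and 14.9 CPM (-3.40). In the division at 10 counts at E9.5, where 11.5% of all genes were higher and 11.1% lower, erythroid genes were lower in 5 of 10 and macrophage genes higher in 5 of 9 and lower in 1.

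**Figure D5:**
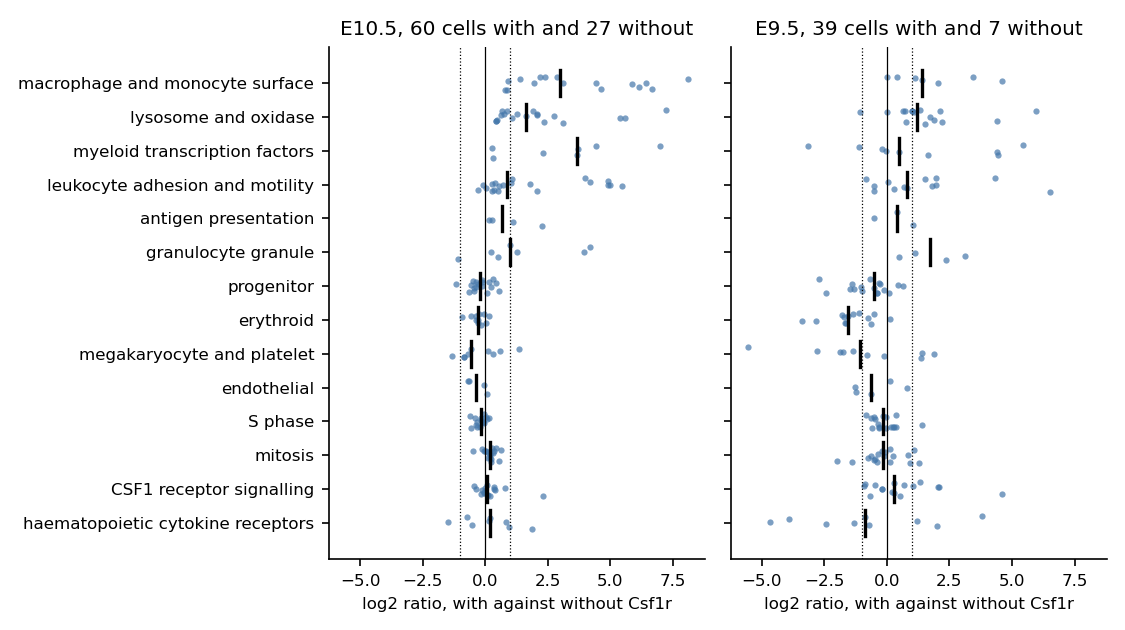
Log2 ratio of mean CPM + 1 with against without Csf1r for the compared members of 14 gene lists (points) and their median (bars) at E10.5 (left) and E9.5 (right); dotted lines mark 2-fold. The medians of the macrophage, lysosome and granule lists lie to the right of 0 at both stages, and those of the erythroid and megakaryocyte lists lie further to the left at E9.5.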

How the data were processed

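Single-cell RNA-seq of sorted mouse yolk sac cells was used. Read counts per gene were made by the authors, who captured cells on the Fluidigm C1 system, prepared Nextera XT libraries, aligned the reads with Rsubread to GRCm38 and summarised them with featureCounts. The authors filtered cells with scater and deposited a table named CPM, here treated as signal, in which each cell's counts are multiplied by 1 factor derived with scran, so that the sums of cells differ. Of the table of all captured cells, 981 columns were not used.

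Levels are means of the deposited CPM values over cells, and ratios are log2 of mean CPM + 1. Genes with a mean of 20 CPM and detection in 25% of cells in 1 class were compared, and 2-fold was the limit for a call. No test was made. The 14 genes of each direction with the most extreme chance of superiority among those past 2-fold, the 3 members of each list with the largest difference past 2-fold, and a set of lineage genes were named. Other genes were named from the lists after their values were seen. The members and the 18 lists were chosen with earlier results of these data known. Cells were matched to populations over 2000 variable genes. Both sexes were called from 5 counts of *Xist* and of 4 Y-linked genes. No doublet caller was run. Total counts per cell were 483830 to 4339557, and intervals (95%) cover counting error only. Alternatives were another limit for *Csf1r*, thinning to 840000 counts, other scalings, a pseudocount of 10, no filter and fewer cells. The procedure was tested on simulated data. The software was scipy 1.17.1 and pandas 2.3.3 on Python 3.11.15, with numpy 2.4.6, and figures were drawn in matplotlib 3.10.9. A result for a member of the progenitor list is not reported here.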

Additional observations from a re-analysis of the deposited data

Results flagged for a closer look

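*Rcl1*, which encodes a nucleolar protein of ribosomal RNA processing, differed in direction between the stages: its log2 ratio with against without *Csf1r* was -1.10 at E10.5 (means 42.6 and 92.2 CPM) and 1.37 at E9.5 (means 77.3 and 29.2 CPM). *Clec1b* had a log2 ratio of 1.34 at E10.5 (0.94 without cell 71) and -2.81 at E9.5 (means 14.2 and 106.1 CPM). In both genes the difference between the stages was not tested, and the E9.5 values rest on 7 cells without *Csf1r*.

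Signal for *Csf1r* was also present in the captured E10.5 HPCs that the authors' filter left out. Cell 4 held 18 counts of *Csf1r* in a total of 419858, and the other 4 such cells held 3, 1, 3 and 1 counts in totals of 465858, 434882, 959985 and 380434.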

How the results depend on the processing

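The number of genes 2-fold lower with *Csf1r* (1.46% of those compared) depended on the processing more than the number higher (417). Lower genes numbered 192 with 10 counts or more set against fewer, 230 with 10 or more against 0, 189 after thinning, 26 with a pseudocount of 10, 296 from mean log2 values, 684 with no filter and 172 without cells holding transcripts of both sexes. Higher genes numbered 267 with a pseudocount of 10, 1612 with no filter and 259 without the cells closest to another population. In low-count cells against 0, 264 genes were higher and 167 lower, and without the highest cell of each gene 37 were lower. The share of cells with *Csf1r* was 41.4% at a limit of 10 counts. At E9.5 the higher genes numbered 785 after thinning and 830 at 10 counts or more against fewer. *Cdh5* changed sign at 10 counts or more against fewer (-1.43), and in low-count cells against 0 so did *Lgmn* (-0.10), *Ccl4* (-0.37), *C1qc* (-0.068) and *Ptprc* (-0.41). The cause was not tested. The divisions at 1 to 9 counts, at E9.5 with 10 counts, and without cell 1, cell 71 or each gene's highest cell were chosen after seeing the data. No paired analysis was possible because the result comes from no test and cells carry only capture numbers.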
